A study of Danio rerio with 36 samples.

Results

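Mitochondrial ribosomal proteins build the ribosome inside the mitochondrion, which translates the few proteins that the mitochondrial genome encodes, nearly all of them subunits of the respiratory chain and the ATP synthase. Nuclear genes encode every one of these ribosomal proteins, so the proteins are made in the cytosol, imported and assembled on mitochondrial ribosomal RNA. Names beginning with mrpl stand for large-subunit proteins and names beginning with mrps for small-subunit proteins, and many of them have a bacterial counterpart while others are found only in mitochondria.

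The genes described here were taken by name alone: every symbol in the gene count table that starts with mrpl or mrps followed by a digit. The rule gave 74 of the 30490 genes in the table, of which 46 are mrpl and 28 are mrps genes. One of them, mrps36, is a synonym in RefSeq for kgd4, which is known in mammals as a subunit of the 2-oxoglutarate dehydrogenase complex and not of the ribosome. In mammals the products of mrps18a and mrps30 sit in the large subunit despite their names. Large-subunit and small-subunit genes are grouped below by name alone. Another 6 proteins of the mitochondrial ribosome carry other names, dap3 and ptcd3 among them, and are given separately. The gene table holds 0 genes of the mitochondrial genome itself, so the ribosomal RNAs and translated products of this machinery were not analysed here.

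RNA-seq libraries came from zebrafish of 2 genotypes, kctd15 mutant and wildtype, at 6 stages. The stages labelled embryos are 1 somite, 25 hpf (hours post fertilization) and 2 day, and those labelled larva are 5, 9 and 14 day. Each of the 12 groups held 3 libraries described as biological replicates, which makes 36 libraries. Nothing in the labels tells the number of animals behind a library, whether replicates came from separate clutches, which of the paralogs kctd15a and kctd15b is mutated, or which allele was used, so a p-value measures the spread between these libraries. RNA was extracted with TRIzol, and polyA RNA was sequenced with a stranded kit.

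Total estimated counts ran from 5.51 to 12.5 M per library, and in every library every one of the 74 genes had at least 29.6 estimated counts. Marker genes were set beside the labelled stages. Markers of axial and paraxial mesoderm summed to 782 to 901 CPM (counts relative to library size) at 1 somite and to at most 40.0 CPM at every later stage, and fast muscle markers to at most 6.24 CPM at 1 somite and at least 3898 CPM afterwards. Exocrine pancreas markers summed to at most 15.7 CPM up to 2 day and at least 14357 CPM from 5 day on. Photoreceptor markers were lower at 9 day (729 to 1388 CPM) than at 5 day (2602 to 5543 CPM). These sums do not check every stage label. RNA of kctd15a averaged 162 CPM in mutants and 107 CPM in wild type at 1 somite. It was 3.26- to 3.91-fold higher in mutants at the 5 later stages, with no overlap between genotypes at any stage. RNA of kctd15b overlapped at 1 somite and was 1.56- to 2.16-fold higher in mutants at the 5 later stages, without overlap. A lesion need not lower RNA, so this does not check the genotype labels.

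Levels below are CPM scaled with TMM factors over all 36 libraries. They carry no correction for transcript length, so they compare libraries for a gene and not genes with each other. In whole animals fewer cells that use a gene and less of its RNA per cell cannot be told apart.

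Over development the summed level of the 74 genes took a like course in both genotypes. On average it was highest at 25 hpf, lower at 2 day, lowest at 5 day, and higher again at 9 and 14 day. In mutants the 74 genes summed to 2046, 2767 and 2223 CPM in the 3 libraries at 1 somite, 2434, 2630 and 2448 CPM at 25 hpf, 1595, 1447 and 1526 CPM at 2 day, 1179, 1228 and 1259 CPM at 5 day, 2137, 2261 and 2022 CPM at 9 day, and 1752, 1860 and 1464 CPM at 14 day. In wild type the sums were 2365, 2202 and 2605 CPM at 1 somite, 2559, 2415 and 2696 CPM at 25 hpf, 2039, 1903 and 1724 CPM at 2 day, 1291, 1257 and 1263 CPM at 5 day, 2097, 2124 and 1978 CPM at 9 day, and 1868, 2036 and 1951 CPM at 14 day. The 6 libraries of 5 day lay below those of every other stage in either genotype. The genotypes overlapped at 1 somite, 25 hpf, 5 day and 9 day, while at 2 day and 14 day the 3 mutant libraries were all below the 3 wild-type ones, at 14 day only narrowly.

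**Figure D1:**
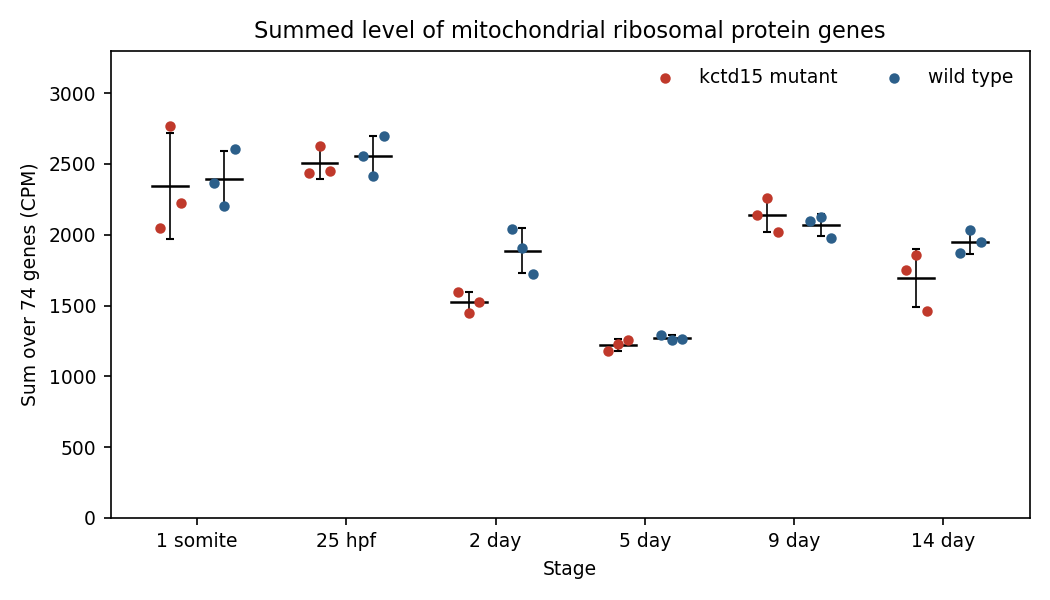
Summed level of the 74 mitochondrial ribosomal protein genes in each library (y axis, CPM) by stage (x axis). Points are libraries, bars the mean and whiskers the SD of 3 libraries. The sum is lowest at 5 day, between 1179 and 1291 CPM, and the mutant points lie below the wild-type points at 2 day and 14 day.

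Most single genes had their lowest level where the sum did, and fewer passed the test at every turn. The stage with the lowest mean was 5 day for 67 of the 74 genes in mutants and for 68 in wild type. The highest mean fell at 25 hpf for 42 genes in mutants and 39 in wild type, and at 1 somite for 26 in mutants and 30 in wild type. Other genes were lowest at 1 somite, 4 in mutants and 5 in wild type, or highest at 9 or 14 day, 6 in mutants and 5 in wild type. With the test described next, a gene could be called lower at 2 day, lower again at 5 day and higher at 9 day. This pattern held for 39 genes in mutants and 46 in wild type, 29 of them in both. Of all genes 11.0% had it in mutants and 10.7% in wild type. Of 77 cytosolic ribosomal protein genes 0 had it in mutants and 32 in wild type, and of nuclear oxidative phosphorylation genes 0 in either. The gene mrps36, chosen after its values were seen, was lowest at 1 somite and highest at 9 day in mutants, with means of 28.4 and 53.2 CPM. The ratio of a gene's highest to its lowest stage mean had a median of 2.34 in mutants and 2.18 in wild type. It was greatest in both genotypes for mrps6, at 4.66 in mutants and 5.11 in wild type, and smallest for mrpl4 in mutants (1.53) and for mrpl41 in wild type (1.49).

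Consecutive stages were compared within each genotype with edgeR's quasi-likelihood test, adjusted by Benjamini-Hochberg over all genes tested, and a gene was called at an adjusted p under 0.05. In the step to 25 hpf from 1 somite, 25 genes rose and 8 fell in mutants, where 76.0% of all genes tested were called, and 27 rose and 10 fell in wild type, where 76.9% were. The share of the 74 that was called was thus below that of all genes. Of these calls 25 were made in the same direction in both genotypes and 0 in opposite directions. The counts of the step rest on the scaling: with library size in place of TMM the wild-type step gave 53 higher and 2 lower, with the median of all genes at 0.42 on the log2 scale, against 0.12 with TMM.

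Small-subunit protein gene mrps14, the counterpart of bacterial S14, rose most in wild type. It measured 27.5, 28.1 and 31.1 CPM at 25 hpf against 7.86, 12.7 and 10.3 CPM at 1 somite in mutants (log2 fold change 1.60 ± 0.16 SE, edgeR adjusted p = 1e-07). In wild type it measured 26.5, 28.1 and 31.8 CPM against 10.4, 7.58 and 14.1 CPM (1.48 ± 0.17, adjusted p = 1.59e-06). In both genotypes every 25 hpf library was above every 1 somite library. The large-subunit genes mrpl16 (0.96 ± 0.10) and mrpl52 (0.92 ± 0.14), the second of them specific to mitochondria, came next in wild type. In the other direction mrps28 fell to 17.8 ± 0.329 CPM at 25 hpf, against 37.0 ± 7.71 CPM at 1 somite in wild type (SD, n = 3 each; -1.01 ± 0.14), followed by mrps6 (-0.75 ± 0.11) and mrpl9 (-0.50 ± 0.11).

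Between 25 hpf and 5 day almost the whole set declined. In the step to 2 day from 25 hpf, 73 of 74 genes fell in mutants and 55 in wild type, and 0 rose in either, where 62.6% of all genes were called in mutants (31.2% lower) and 59.7% in wild type (29.1% lower). The median log2 fold change of the 74 was -0.68 in mutants, against -0.39 in wild type. The 1 gene not called in mutants was mrpl4 (-0.12 ± 0.10). In wild type the largest falls were those of mrpl22 (-0.73 ± 0.12), mrps16 (-0.69 ± 0.11) and mrpl54 (-0.68 ± 0.11). For mrps16, the counterpart of bacterial S16, the 2 day libraries had 18.0, 15.1 and 13.5 CPM against 22.1, 26.4 and 23.9 CPM at 25 hpf in mutants, and 18.2, 17.0 and 17.7 CPM against 30.4, 30.4 and 29.5 CPM in wild type. The stages did not overlap in either genotype.

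In the step to 5 day from 2 day, 39 genes fell and 1 rose in mutants, and 65 fell and 0 rose in wild type, against 56.0% of all genes called in mutants (26.9% lower) and 61.0% in wild type (30.2% lower). The median of the 74 was -0.39 in mutants, against -0.62 in wild type. Of the falls 36 were called in both genotypes. The 1 gene that rose in mutants was mrpl2, the counterpart of bacterial L2 near the peptidyl transferase centre, with 42.5, 41.6 and 37.5 CPM at 5 day against 30.1, 28.9 and 29.3 CPM at 2 day (0.46 ± 0.11, edgeR adjusted p = 0.00291). In wild type mrpl2 did not pass (-0.11 ± 0.14, adjusted p = 0.532). The largest falls in wild type were those of mrps21 (-1.16 ± 0.22), mrpl14 (-1.08 ± 0.16) and mrps6 (-1.06 ± 0.17). The same genes gave -0.72 ± 0.19, -0.53 ± 0.14 and -0.62 ± 0.13 in mutants. Whether the size of a step differed between genotypes was not tested by itself, and the test of the mutant difference between stages is given further on.

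In the step to 9 day from 5 day the set came back up, with 73 of 74 genes higher in mutants and 71 in wild type, 0 lower in either, and 57.5% of all genes called in mutants (28.5% higher) and 49.3% in wild type (25.4% higher). The median log2 fold change was 0.86 in mutants and 0.80 in wild type, and 70 of the rises were called in both. The exception in mutants was mrpl2 (-0.05 ± 0.13), and those in wild type were mrpl23 (0.15 ± 0.11), mrpl41 (0.17 ± 0.14) and mrpl42 (0.38 ± 0.16). The largest rise in wild type was that of mrpl21. It measured 21.4, 19.2 and 19.3 CPM at 9 day against 9.84, 8.79 and 8.58 CPM at 5 day in mutants (1.15 ± 0.13), and 19.4, 20.7 and 20.2 CPM against 10.1, 6.94 and 8.82 CPM in wild type (1.27 ± 0.16). Every 9 day library had more than every 5 day library. The next largest were mrps18a (1.16 ± 0.13) and mrps33 (1.14 ± 0.15).

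In the step to 14 day from 9 day 14 genes fell in mutants and 4 in wild type, and 0 rose, against 19.6% of all genes called in mutants (8.95% lower) and 16.8% in wild type (7.46% lower). The median was -0.33 in mutants, against -0.07 in wild type. The 4 in wild type were mrpl39 (-0.67 ± 0.19), mrps28 (-0.65 ± 0.18), mrps34 (-0.51 ± 0.15) and mrpl44 (-0.49 ± 0.12), and 3 of the 4 were called in mutants too. These wild-type calls rest on few libraries: the count was 0 without wild type 2 of 9 day or without wild type 3 of 14 day, and 1 without wild type 1 of 9 day or wild type 2 of 14 day. With library size in place of TMM it was 19, under a median of all genes of -0.22.

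**Figure D2:**
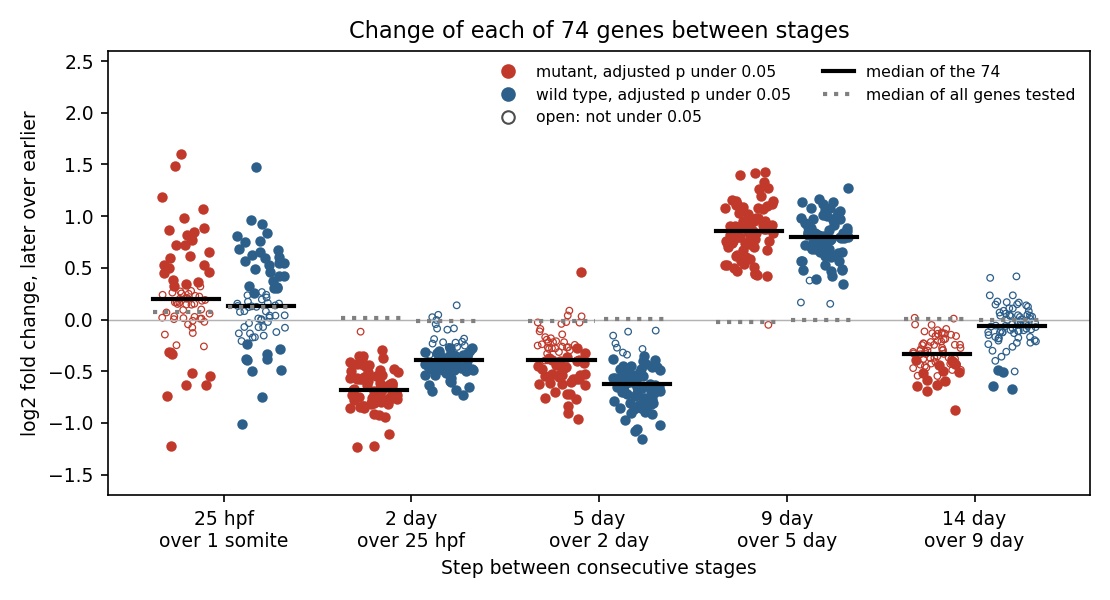
Log2 fold change of each of the 74 genes (y axis) in 5 steps between consecutive stages (x axis), in mutants and in wild type. Filled points have an adjusted p under 0.05, solid lines are medians of the 74 genes and dotted lines medians of all genes tested. Both clouds lie mostly below 0 in the steps to 2 day and 5 day and mostly above 0 in the step to 9 day.

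Other ribosomal and mitochondrial genes gave other counts, and the differences between these gene groups were not tested. Genes of cytosolic ribosomal proteins, 77 in the table, fell with the 74 in the step to 2 day (75 called lower in mutants, 55 lower and 2 higher in wild type). In the step to 5 day 14 of them rose and 0 fell in mutants, while 1 rose and 55 fell in wild type, and in the step to 9 day 0 rose and 1 fell in mutants against 49 and 0 in wild type. Nuclear genes of oxidative phosphorylation subunits include many, though not all, whose products have partners made by the mitochondrial ribosome. In the step to 5 day 39 of 89 rose and 2 fell in mutants, against 16 and 10 of 88 in wild type. Markers of dividing cells moved as the 74 did in 3 steps: all 9 fell in the steps to 2 day and to 5 day and all 9 rose in the step to 9 day, in mutants and in wild type. Their median log2 fold changes in these 3 steps were -1.80, -1.03 and 1.53 in mutants and -1.64, -1.71 and 1.67 in wild type. The step to 25 hpf differed, as more of the 74 rose than fell. There these markers went down, from 5401 to 6059 CPM in the libraries of 1 somite to between 4151 and 4549 CPM at 25 hpf. The part of these markers in the course of the 74 genes was not tested.

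Other genes of mitochondrial translation shared part of it. Of the 6 ribosomal proteins with other names, 5 fell in the step to 2 day, 5 fell in the step to 5 day and 5 rose in the step to 9 day in mutants, against 4, 4 and 5 in wild type. The translation factor list also holds oxa1l, tmem70 and mpv17l2, which do not encode translation factors. Of the genes on this list 9 of 15 fell, 5 of 15 fell and 12 of 15 rose in mutants, against 6 of 14, 6 of 14 and 10 of 15 in wild type, where 1 also rose in the step to 5 day. Of the genes for assembly factors of the mitochondrial ribosome, 10 of 24 fell in the step to 2 day in mutants and 11 of 25 in wild type, and 0 rose. At 5 day, set against 2 day, 2 of 25 fell and 4 rose in mutants, against 5 and 1 of 25 in wild type, and in the step to 9 day 14 rose and 2 fell in mutants, against 13 and 0 in wild type. The list of 18 genes for mitochondrial tRNA synthetases also holds gatb, gatc and qrsl1, which encode subunits of an amidotransferase. Of these 18 genes, 4 fell and 0 rose in the step to 2 day in mutants, against 5 and 1 in wild type. At 5 day 3 were lower than at 2 day in mutants and 7 in wild type, with 0 higher, and in the step to 9 day 11 rose and 1 fell in mutants, against 12 and 0 in wild type.

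Mutant and wild-type animals were next compared at each stage. Few genes of the set passed the test at any one stage, and 17 of the 18 calls were lower in mutants. The 18 calls are out of 444 pairs of gene and stage and fell on 14 genes, of which 3 were called at 2 or more stages and only mrpl51 at 3. For mrpl51 the transcript matched to it held 3937 of 8432 counts, and the source of the rest is not known here. The share of the 74 that was called was close to that of all genes tested at 2 day and below it at the other stages. It was 4.05% at 1 somite (3 genes, against 13.6% of all genes), 6.76% at 25 hpf (5 genes, against 13.6%), 6.76% at 2 day (5 genes, against 6.86%), 5.41% at 5 day (4 genes, against 14.0%), 0 genes at 9 day (against 1.91%) and 1.35% at 14 day (1 gene, against 4.80%). In the lower direction alone, which took 17 of the 18 calls, the share of the 74 was above that of all genes at 2 day (6.76% against 2.17%).

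**Figure D3:**
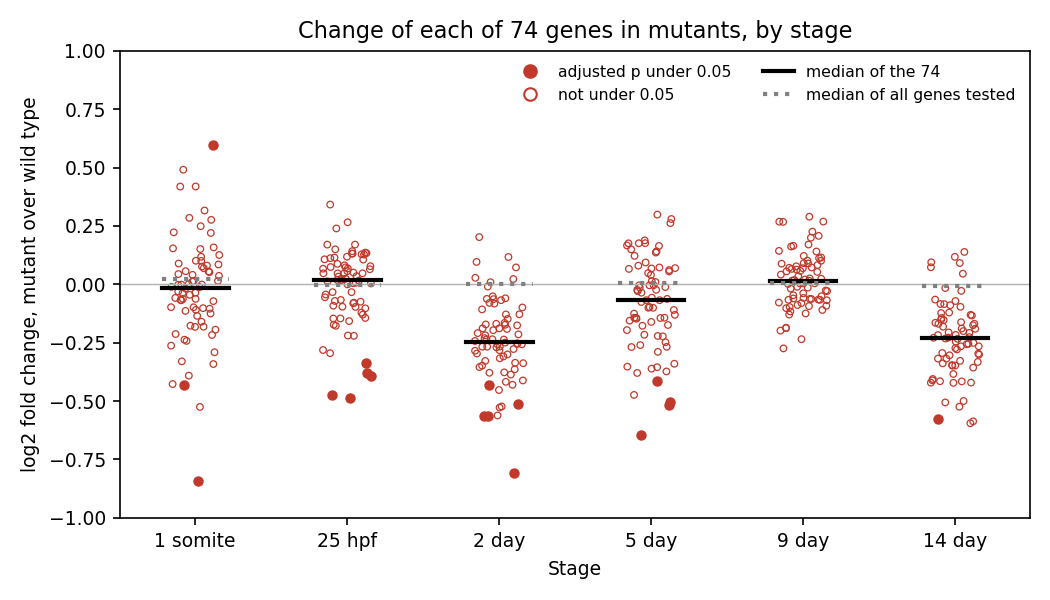
Log2 fold change of each of the 74 genes, mutant over wild type (y axis), at 6 stages (x axis). Filled points have an adjusted p under 0.05, solid lines are medians of the 74 genes and dotted lines medians of all genes tested. The clouds lie mostly below 0 at 2 day (67 of 74) and 14 day (68 of 74).

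At 1 somite 1 gene rose and 2 fell in mutants, where 6.77% of all genes rose and 6.79% fell, and the median of the 74 was -0.01, or 0.04 with library size in place of TMM. The gene mrpl20, the counterpart of the bacterial large-subunit protein L20, had 15.7, 17.9 and 17.4 CPM in mutants and 31.8, 24.2 and 36.01 CPM in wild type. All 3 mutant libraries were below all wild-type libraries (log2 fold change -0.84 ± 0.15, edgeR adjusted p = 0.00367). The small-subunit gene mrps7, whose bacterial counterpart S7 binds near the tRNA exit site, had 50.7, 65.2 and 46.8 CPM in mutants and 34.7, 35.2 and 37.8 CPM in wild type. It was the 1 gene of the set that rose at any stage (0.60 ± 0.13, adjusted p = 0.0103). Both calls were kept with any 1 library left out. The third, mrpl49, specific to mitochondria, had 21.7, 26.5 and 24.1 CPM in mutants and 29.4, 30.8 and 37.7 CPM in wild type (-0.43 ± 0.13, adjusted p = 0.044), and was lost without any library other than mutant 2 (adjusted p 0.0555 to 0.173). Mutant 2 was the library with the highest summed level at this stage, 2767 CPM, and without it 1 gene rose and 6 fell, with a median of -0.16.

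At 25 hpf 5 genes fell and 0 rose, all of them large-subunit genes, where 6.75% of all genes fell, while the median of the 74 was 0.02, or -0.05 with library size, and 31 of them lay below 0. Again mrpl20 was lower, with 19.7, 19.8 and 16.8 CPM in mutants and 23.5, 27.3 and 29.1 CPM in wild type (-0.49 ± 0.12, edgeR adjusted p = 0.00842). The groups did not overlap. The call was kept with any 1 library left out and was lost in the fit of all 36 libraries. The mitochondria-specific gene mrpl42 had 18.3, 15.7 and 17.1 CPM in mutants and 24.7, 21.9 and 25.5 CPM in wild type (-0.48 ± 0.12, adjusted p = 0.0114). The gene mrpl36, the counterpart of one of the smallest bacterial ribosomal proteins, had 26.3, 26.2 and 28.5 CPM in mutants and 34.4, 33.2 and 39.6 CPM in wild type (-0.38 ± 0.10, adjusted p = 0.0156). In both genes the mutant libraries all lay below the wild-type libraries. The other 2 calls were mrpl51 (-0.34 ± 0.09, adjusted p = 0.0215) and mrpl21 (-0.39 ± 0.12, adjusted p = 0.0364). The count was 1 without mutant 2 and 3 without mutant 1, 2 with DESeq2 and 1 in the fit of all 36 libraries. Depth differed here, at 5.51 to 6.67 M counts in mutants and 7.93 to 10.8 M in wild type, and all 5 fast muscle markers were called higher in mutants, summing to 6557 to 7231 CPM in mutants and 3898 to 4371 CPM in wild type. Their part in these falls was not tested.

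At 2 day the set as a whole was lower in mutants. It summed to 1523 ± 74.3 CPM in mutants and 1889 ± 158 CPM in wild type (SD, n = 3 each), a ratio of 0.806, with 0.798 for the large-subunit and 0.821 for the small-subunit genes. The log2 fold change was below 0 for 67 of the 74 genes, against 49.8% of all genes tested, with a median of -0.25 for the set and 0.00 for all genes. The groups did not overlap for 36 of the 74 genes, all lower in mutants, against 19.2% of all genes with mutants below. The test called 5 genes lower and 0 higher, where it called 2.17% of all genes lower.

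The clearest of the 5 was mrps17, the counterpart of bacterial S17, with 8.12, 9.35 and 8.25 CPM in mutants and 16.2, 14.7 and 16.6 CPM in wild type (-0.81 ± 0.15, edgeR adjusted p = 0.00995). All mutant libraries lay below all wild-type libraries, and the call was kept with any 1 library left out. The gene mrpl16, the counterpart of bacterial L16, had 47.6, 40.0 and 42.0 CPM in mutants and 74.6, 72.4 and 54.4 CPM in wild type (-0.56 ± 0.13, adjusted p = 0.0269). The mitochondria-specific mrpl51 had 18.8, 18.6 and 17.9 CPM in mutants and 27.8, 30.5 and 24.7 CPM in wild type (-0.51 ± 0.13, adjusted p = 0.0325). Both were without overlap, as were mrps34 (-0.43 ± 0.11, adjusted p = 0.0406) and mrpl42 (-0.56 ± 0.15, adjusted p = 0.0491). Each of these 4 was lost without one library or another. The count was 11 without wild type 3, whose sum of 1724 CPM was the lowest of the wild-type libraries, 3 without mutant 1 and 1 without wild type 1, wild type 2, mutant 2 or mutant 3. It was 2 with DESeq2 and 15 in a fit of all 36 libraries.

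Genes of oxidative phosphorylation subunits were lower in the same animals. They summed to 10481 ± 277 CPM in mutants and 12834 ± 1640 CPM in wild type without overlap, and 76 of 87 lay below 0 (median -0.21), though 3 were called lower and 3 higher. The other lists of mitochondrial genes also had lower sums in mutants. Those of the translation factor list (239.6 CPM in mutants and 288.4 CPM in wild type, ratio 0.831) and the tRNA synthetase list (ratio 0.914), both with the further genes named above, did not overlap. Nor did those of the lists for transcription and replication of mitochondrial DNA (0.844) and for regulators of mitochondrial biogenesis (0.894). The first of these also holds lrpprc and slirp, which act on mitochondrial mRNA. The regulator list also holds yy1a, yy1b, myca and mycb, whose products are not specific to mitochondria. In wild type yy1a alone averaged 303 CPM of that list's 585 CPM. The sums of assembly factors (0.877) and of the 6 ribosomal proteins with other names (0.883) did overlap. Cytosolic ribosomal protein genes overlapped between genotypes (74755 ± 4260 CPM in mutants and 80774 ± 10721 CPM in wild type, 0 of 77 called). Markers of dividing cells overlapped at 1194 to 1535 CPM in mutants and 1317 to 1523 CPM in wild type, with 0 of 9 called and a median of -0.13. Fast muscle markers overlapped as well, at 22665 ± 1044 CPM in mutants and 21875 ± 2402 CPM in wild type, with 1 of 5 called higher. Markers of axial and paraxial mesoderm, low by this stage, did not overlap, at 6.54 to 7.503 CPM in mutants and 9.61 to 14.5 CPM in wild type, with 0 of the 2 tested called. Their part in the lower level of the set was not tested.

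At 5 day, where the set was lowest, 4 genes fell and 0 rose, all of the large subunit, where 7.84% of all genes fell, with a median of -0.07 and 49 of 74 below 0. The gene mrpl9, the counterpart of bacterial L9, had 6.70, 6.85 and 8.58 CPM in mutants and 11.9, 11.7 and 11.1 CPM in wild type (-0.65 ± 0.16, edgeR adjusted p = 0.0212). The gene mrpl23 had 27.7, 27.5 and 26.3 CPM in mutants and 34.7, 35.5 and 37.6 CPM in wild type (-0.41 ± 0.10, adjusted p = 0.022). The gene mrpl10, whose bacterial counterpart L10 holds the stalk of the large subunit, had 10.98, 12.8 and 11.8 CPM in mutants and 18.6, 16.6 and 15.5 CPM in wild type (-0.52 ± 0.14, adjusted p = 0.0293). In all 3 the genotypes did not overlap, and mrpl51 was again lower (-0.50 ± 0.15, adjusted p = 0.0498). The count was 0 without wild type 1, wild type 2, mutant 1 or mutant 2, 1 without mutant 3, 0 with DESeq2 and 14 with library size in place of TMM.

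Cytosolic ribosomal protein genes moved the other way at this stage. Of 77 genes 61 rose and 0 fell, with a median of 0.35 and sums of 82408 ± 3362 CPM in mutants and 63808 ± 627 CPM in wild type. With library size the median of all genes was -0.17 against 0.01 with TMM, and that of the 74 to -0.24 against -0.07 with TMM. Fast muscle markers were also higher, at 31606 ± 780 CPM in mutants and 25047 ± 1191 CPM in wild type (4 of 5 called), as were markers of dividing cells, at 488 to 601 CPM in mutants and 341 to 432 CPM in wild type (4 of 9 called). Their part in these calls was not tested.

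At 9 day 0 genes were called with edgeR and 0 with DESeq2. The set summed to 2140 ± 120 CPM in mutants and 2066 ± 77.9 CPM in wild type, and the median was 0.02, or -0.04 with library size. The largest difference upward was that of mrpl37 (0.29 ± 0.09, edgeR adjusted p = 0.164).

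At 14 day the set lay lower once more, with 1692 ± 205 CPM in mutants and 1951 ± 84.1 CPM in wild type, a ratio of 0.867. The lowest library was mutant 3 with 1464 CPM, and the highest mutant library (1860 CPM) was just below the lowest wild-type library (1868 CPM). The log2 fold change was below 0 for 68 of 74 genes, against 50.8% of all genes, with a median of -0.23. The groups did not overlap for 21 genes, all lower in mutants, against 13.6% of all genes with mutants below. Only mrpl48 was called, where 2.50% of all genes fell. It is a mitochondria-specific gene and had 14.6, 15.8 and 14.0 CPM in mutants and 19.6, 23.0 and 23.2 CPM in wild type (-0.58 ± 0.14, edgeR adjusted p = 0.0411). The call was lost without wild type 2, wild type 3 or any mutant library (adjusted p 0.0656 to 0.138), and with DESeq2. The median of the set ran from -0.32 to -0.14 with 1 library left out. Oxidative phosphorylation genes had a median of -0.15 with 0 of 90 called higher and 2 lower, and their sums overlapped, as did those of the cytosolic ribosomal protein genes with 0 of 77 called.

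**Figure D4:**
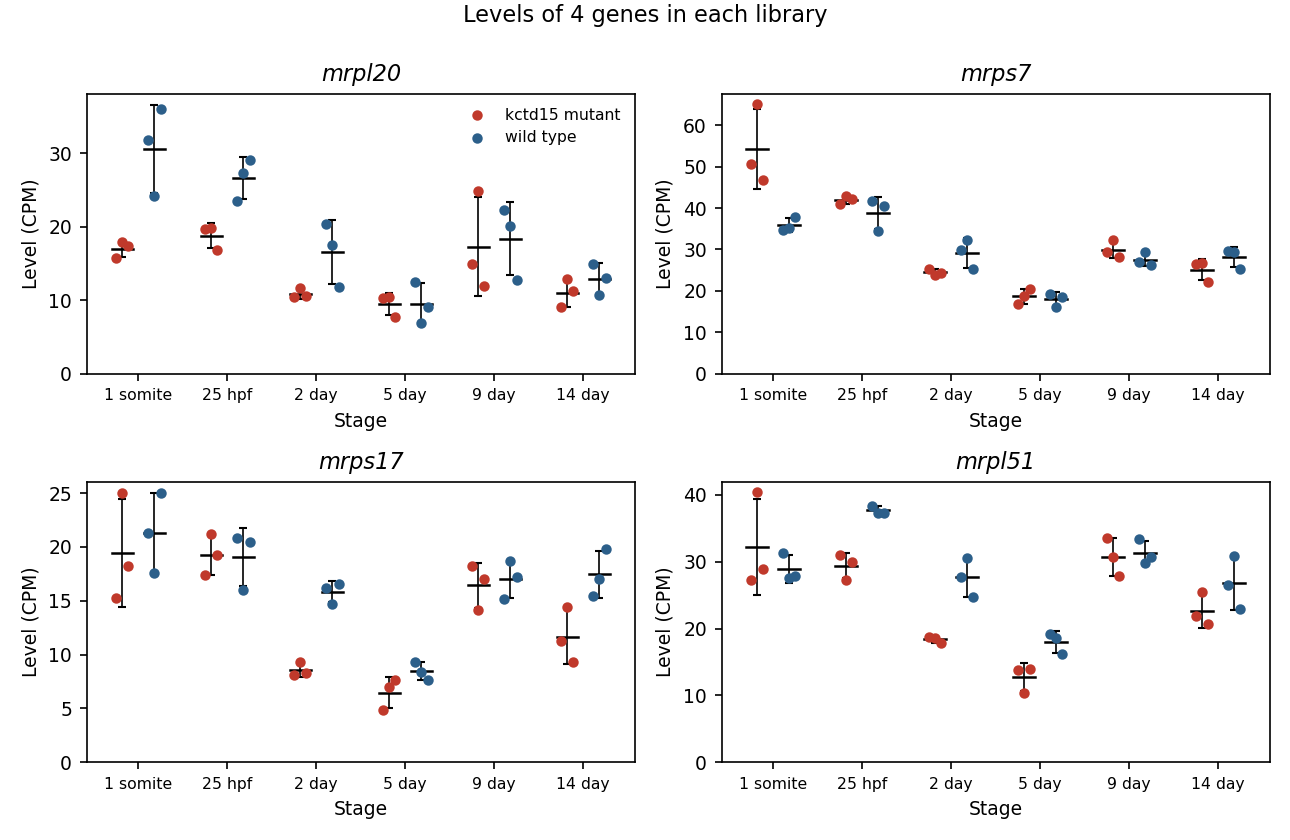
Level of mrpl20, mrps7, mrps17 and mrpl51 in each library (y axis, CPM) by stage (x axis). Points are libraries, bars the mean and whiskers the SD of 3 libraries. Mutants are separate from wild type for mrpl20 at 1 somite, 25 hpf and 2 day, for mrps7 at 1 somite, for mrps17 at 2, 5 and 14 day and for mrpl51 at 25 hpf, 2 day and 5 day.

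Averaged over the 6 stages in a fit of all 36 libraries, 16 of the 74 genes fell in mutants and 0 rose, against 10.9% of all genes called lower and 20.5% called in either direction. These were 9 large-subunit and 7 small-subunit genes. The averaged log2 fold change was below 0 for 65 genes (51.4% of all genes), with a median of -0.11. The smallest p-values were those of mrpl51 (-0.26 ± 0.05, edgeR adjusted p = 0.000773), mrps16 (-0.24 ± 0.05, 0.000833), mrpl9 (-0.28 ± 0.06, 0.000947), mrpl10 (-0.29 ± 0.06, 0.000958) and mrps17 (-0.33 ± 0.07, 0.00134). The largest averaged fall was that of mrpl20 (-0.38 ± 0.09, 0.0039). The other called genes were mrpl46, mrps22, mrpl42, mrps5, mrps31, mrpl14, mrpl23, mrps9, mrpl4 and mrps28. Of the 16 calls 11 were kept with any 1 library left out. The count was 30 without mutant 2 of 1 somite and 36 with library size.

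These averages join different stage patterns. For mrps16 no single stage passed, with values of -0.29 ± 0.10 at 25 hpf (edgeR adjusted p = 0.0599) and -0.47 ± 0.15 at 5 day (0.0577). For mrps17 the differences were -0.81 ± 0.15 at 2 day and -0.59 ± 0.19 at 14 day, and between -0.13 and 0.05 at 1 somite, 25 hpf and 9 day. At 5 day it was -0.37 ± 0.20, with 4.85, 6.98 and 7.60 CPM in mutants and 9.30, 8.43 and 7.62 CPM in wild type, which did not overlap but did not pass (edgeR adjusted p = 0.241). In all, 6 of the 74 genes had a log2 fold change below 0 at all 6 stages and 0 had one above 0 at all 6. The share of all genes with either pattern was not computed, so these counts have nothing to be set against.

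Whether the mutant difference of a gene varied between stages was tested with 5 degrees of freedom in the same fit. It did for 11 of the 74 genes, against 25.5% of all genes. The smallest p-values were those of mrpl42 (edgeR adjusted p = 0.00136), mrps7 (0.00383), mrpl47 (0.00749), mrpl52 (0.0109) and mrpl12 (0.018). For mrpl42 the difference was 0.42 ± 0.15 at 1 somite, -0.48 ± 0.12 at 25 hpf and -0.56 ± 0.15 at 2 day, where the mutant libraries had 36.6, 52.1 and 39.7 CPM, 18.3, 15.7 and 17.1 CPM, and 13.7, 12.7 and 12.004 CPM at these stages. The wild-type libraries had 27.8, 30.5 and 37.9 CPM, 24.7, 21.9 and 25.5 CPM, and 23.9, 19.4 and 16.6 CPM. The genotypes overlapped at 1 somite, and mutants were below wild type at both later stages. For mrpl52 the difference was 0.42 ± 0.15 at 1 somite, 0.27 ± 0.13 at 25 hpf and -0.53 ± 0.18 at 2 day, and for mrpl47, the counterpart of bacterial L29, 0.28 ± 0.12 at 1 somite and -0.42 ± 0.15 at 14 day. None of these stage values of mrpl52 and mrpl47 passed alone. Of the 11 calls 6 were kept with any 1 library left out, and the count was 6 without wild type 1 and 7 without wild type 2 of 2 day.

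The rest of the mitochondrial translation machinery was set beside these genes as gene lists, described by their counts. Of all genes tested 13.6% were called at 1 somite, 13.6% at 25 hpf, 6.86% at 2 day and 14.0% at 5 day. At 9 day 1.91% were called, at 14 day 4.80% and for the averaged effect 20.5%. The counts of these small lists were not tested against such shares. Of the 6 ribosomal proteins with other names, 0 were called at any stage, and averaged over stages 2 fell and 0 rose, namely ptcd3 (-0.18 ± 0.04, edgeR adjusted p = 0.00431) and gadd45gip1 (-0.19 ± 0.05, 0.00969). Their sum did not overlap at 5 day (106 ± 2.18 CPM in mutants and 119 ± 6.04 CPM in wild type) and 14 day (163 ± 16.5 CPM in mutants and 185 ± 2.68 CPM in wild type), lower in mutants both times. Of the 15 genes of the translation factor list 2 fell and 0 rose at 5 day, both for elongation factors. The gene tsfm, which encodes the exchange factor EF-Ts, had 8.93 ± 1.10 CPM in mutants and 17.7 ± 1.75 CPM in wild type (-0.98 ± 0.15, adjusted p = 0.00184), and gfm1, which encodes the translocation factor EF-G, had 21.8 ± 1.64 CPM in mutants and 32.7 ± 0.485 CPM in wild type (-0.60 ± 0.11, adjusted p = 0.00512). The gene taco1, known in mammals for promoting translation of cytochrome c oxidase subunit I, rose at 25 hpf (2.26 ± 0.60, adjusted p = 0.0181) and 2 day (2.29 ± 0.59, 0.0403) at low levels, with 3.57 ± 0.808 CPM in mutants and 0.845 ± 1.17 CPM in wild type at 25 hpf.

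Of 25 genes for assembly of the mitochondrial ribosome 2 rose and 1 fell at 1 somite, among them mettl17 (0.64 ± 0.12, edgeR adjusted p = 0.00629) and rnmtl1b, an RNA methyltransferase (0.86 ± 0.19, 0.0129). On this list ndufab1b also rose at 25 hpf (0.30 ± 0.10, 0.0473) and noa1 fell at 5 day (-0.38 ± 0.11, 0.0378). Averaged over stages 0 rose and 3 fell, including gtpbp10 (-0.21 ± 0.05, 0.00533) and mrm1 (-0.47 ± 0.14, 0.0129). Of the 18 genes of the mitochondrial tRNA synthetase list 2 fell at 1 somite, where 6.79% of all genes fell. They were pars2 (-0.63 ± 0.17, 0.0281) and sars2 (-0.86 ± 0.26, 0.0471), and 0 were called at the other 5 stages. Of the 11 genes listed for transcription and replication of mitochondrial DNA, peo1, the mitochondrial helicase, rose at 1 somite (0.66 ± 0.13, 0.00608). From the same list, which includes the further genes named above, 1 gene fell at each of 25 hpf (top1mt), 2 day (slirp) and 5 day. The last was tfb2m, a mitochondrial transcription factor (-0.45 ± 0.10, 0.0153).

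Among the 11 genes of the list for regulators of mitochondrial biogenesis, with the further genes named above, 0 were called at 1 somite and at 9 day. The coactivator gene pprc1 fell at 25 hpf, with 43.0 ± 2.37 CPM in mutants and 61.8 ± 5.90 CPM in wild type (-0.50 ± 0.09, edgeR adjusted p = 0.00129), together with esrra (-0.43 ± 0.12, 0.0208). At 2 day gabpa, a transcription factor known in mammals to act on genes of mitochondrial proteins, fell to 27.2 ± 2.46 CPM in mutants, against 39.4 ± 5.11 CPM in wild type (-0.47 ± 0.13, 0.0486). The paralogs myca and mycb, both for Myc transcription factors, rose at 5 day (0.83 ± 0.14 and 1.08 ± 0.18) and fell at 14 day (-0.64 ± 0.13 and -0.82 ± 0.13). Their difference varied between stages (interaction adjusted p = 7.97e-05 for myca and 3.24e-06 for mycb).

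The deposited transcript table allowed a look within genes. It was possible to match 66 of the 74 genes to a transcript, and 6 of them to more than 1. In each of the 6 genes the estimated counts were divided between a curated and a predicted RefSeq transcript. The curated transcript's share did not overlap between genotypes in 13 of their 36 pairs of gene and stage, against 30.1% of such pairs in 1181 genes with at least 50 matched counts in every library. For 2 of the 6, mrpl12 and mrps23, it was without overlap in 1 direction at 4 stages, against 15.5% of the 1181 genes at 4 or more. Mutants were lower at 2 stages for mrpl18 and 1 for mrpl3, and higher at 1 for mrpl21 and 1 for mrpl4. The genes mrpl12 and mrps23 were chosen after their values were seen, and their shares were not tested. For mrpl12, whose bacterial counterpart L12 forms the stalk of the large subunit, the curated transcript held 66.1%, 77.2% and 66.6% of the counts of both transcripts in mutants at 2 day and 21.7%, 34.1% and 41.1% in wild type. At 5 day it held 72.1%, 66.8% and 56.3% in mutants and 29.2%, 34.8% and 16.9% in wild type. Mutants were above wild type without overlap at 2, 5, 9 and 14 day, with means of 70.9% in mutants and 39.6% in wild type at 9 day and 71.8% in mutants and 33.7% in wild type at 14 day. At 1 somite the means were 69.1% in mutants and 67.1% in wild type, and the genotypes overlapped there and at 25 hpf.

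For mrps23, a mitochondria-specific small-subunit gene, the curated transcript held less in mutants. At 1 somite it held 25.7%, 28.8% and 29.9% of the counts in mutants and 66.8%, 59.09% and 62.8% in wild type, and at 14 day 18.1%, 35.2% and 21.97% in mutants and 61.7%, 55.2% and 41.4% in wild type. Mutants were below wild type without overlap at 1 somite, 25 hpf, 5 day and 14 day, and the genotypes overlapped at 2 day and 9 day. These shares rest on 51 to 268 estimated counts per library for mrps23 and 163 to 669 for mrpl12. An exact permutation test of 3 libraries against 3 cannot give a two-sided p below 0.10, and none was run because the genes were picked for this difference. The submitters' alignment-free counting divides reads among transcripts that share sequence and these shares are estimates. At gene level mrpl12 was at -0.36 ± 0.12 at 2 day and -0.27 ± 0.11 at 5 day, without overlap at either stage, and not called at any.

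**Figure D5:**
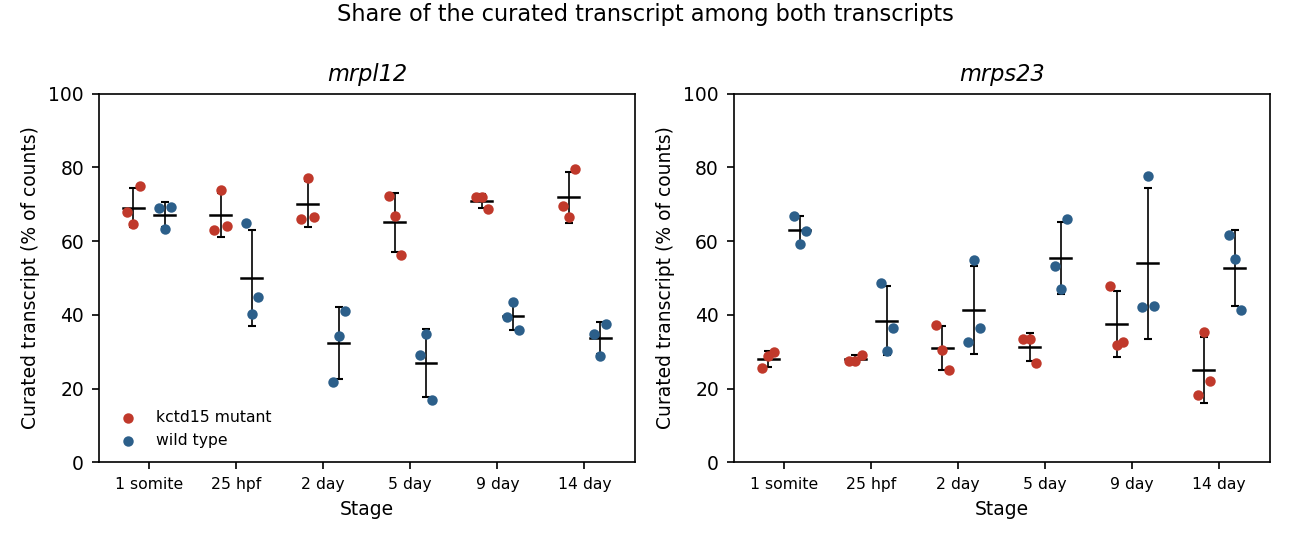
Share of the curated transcript among the estimated counts of both matched transcripts (y axis, percent) by stage (x axis) for mrpl12 and mrps23. Points are libraries, bars the mean and whiskers the SD of 3 libraries. For mrpl12 the mutant points stay between 56.3% and 79.6%, above wild type from 2 day on, and for mrps23 they lie below wild type at 1 somite, 25 hpf, 5 day and 14 day.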

How the data were processed

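The submitters' processing notes name Trimmomatic 0.36, kallisto 0.43.0, edgeR and the build GRCz10 for the reads of these 36 polyA libraries. The authors deposited estimated counts per gene and per transcript, made by them from those reads and not normalized. They cover 30490 genes and 54435 transcripts, and 84.1% of the gene values were not whole within 1e-06. Summed over the libraries, matched transcripts came within 2% of the gene value for 58 of 66 members, the 6 with more than 1 transcript included. For the other 8 (mrpl16, mrpl34, mrpl36, mrpl38, mrpl39, mrpl45, mrpl51 and mrps36) they held less, down to 0.0914% for mrpl39. Among the genes called between genotypes, they held 3937 of 8432 counts for mrpl51, 1915 of 9111 for mrpl36 and 15448 of 18036 for mrpl16. Which transcripts the authors summed is not stated, so the source of the remaining counts is not known here. The authors' normalized table was not used here.

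Estimated counts were rounded to whole numbers and tested with edgeR 4.0.16 in R 4.3.3 (filterByExpr, TMM, glmQLFit, glmQLFTest), with Benjamini-Hochberg adjustment over all genes tested and a threshold of 0.05. Each stage was fitted from its 6 libraries. The averaged mutant effect and its interaction with stage came from all 36 libraries, and each step from the 6 libraries of one genotype. The procedure was tested on simulated data. Standard errors were derived from each fold change and its F statistic. Pairs of replicates differed beyond sampling noise (chi-square per degree of freedom 2.61 to 15.3), and all 36 were kept.

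Of the 74 genes, 73 were matched by symbol in RefSeq. The other lists held 135 entries, and 125 were found in the gene table, 9 by a synonym. Genes named with values were, per stage and direction, the 3 called genes of smallest p, the 5 of smallest p per direction for the averaged effect and 5 for the interaction, and per wild-type step and direction the 3 called genes of largest fold at a mean of at least 1 CPM, with 2 called genes per other list and comparison. The genes mrpl2, mrps36, mrpl4, mrpl41, mrpl37, mrps23 and the exceptions in each step were named after their values were seen. The members, lists and rule were chosen with earlier results of these data known, and the steps within mutants and the transcript shares were added later.

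Alternatives were library size in place of TMM, DESeq2 1.42.0, no filter on low counts, a replicate block, a fit of all 36 libraries and leaving out each library. The same steps in mutant libraries were counted with them. RefSeq gene names came from assembly GRCz12tu, and no sequence was used. Figures were drawn with matplotlib 3.10.9.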

Additional observations from a re-analysis of the deposited data

Results flagged for a closer look

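For 11 of the 74 genes the mutant difference varied between stages by the interaction test of edgeR, a smaller share than the 25.5% of all genes. The adjusted p was 0.00136 for mrpl42, 0.00383 for mrps7, 0.00749 for mrpl47, 0.0109 for mrpl52, 0.018 for mrpl12, 0.0207 for mrpl51, 0.0245 for mrpl16, 0.0373 for mrps17, 0.038 for mrpl17, 0.0388 for mrpl9 and 0.0404 for mrpl37. Leaving out each of the 36 libraries lost the call of mrpl16 in 4 fits, mrps17 in 11, mrpl17 in 7, mrpl9 in 21 and mrpl37 in 16. Without the filter on low counts mrps17, mrpl17, mrpl9 and mrpl37 were lost. The replicate block lost these, mrpl12 and mrpl51. The log2 fold changes of mrps7 were 0.60 at 1 somite, 0.14 at 25 hpf and -0.18 at 2 day. Those of mrpl51 were 0.16 at 1 somite, -0.34 at 25 hpf, -0.51 at 2 day, -0.50 at 5 day, -0.05 at 9 day and -0.25 at 14 day. The gene mrpl16 had 83.3, 76.6 and 79.7 CPM in mutants and 69.9, 64.5 and 71.7 CPM in wild type at 25 hpf (0.24). The groups did not overlap, as for 13.1% of all genes in that direction, and the difference was not called. At 2 day mrpl16 had 47.6, 40.0 and 42.0 CPM in mutants and 74.6, 72.4 and 54.4 CPM in wild type (-0.56). This was called, as were 2.17% of all genes in that direction. It was also without overlap, as were 19.2% of all genes in that direction. The gene mrpl17 had 0.49 at 1 somite and -0.27 at 2 day, mrpl9 -0.65 at 5 day and -0.05 at 9 day, and mrpl12 -0.36 at 2 day and 0.21 at 9 day. The gene mrpl37 had 0.30 at 5 day and 0.29 at 9 day, above wild type without overlap both times, against -0.16 at 1 somite.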

How the results depend on the processing

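Counts of called genes among the 74 were compared over 13 comparisons and 68 alternatives without leaving out a library, and 49 of the 68 gave a count within 1.5 times the reported one. The 68 include the 5 steps fitted in mutant libraries, which are other animals and not another processing of the same libraries. The others follow, and the cause was not tested. At 1 somite the count was 5 without the filter on low counts and 7 in the fit of all 36 libraries, against 3 reported. At 25 hpf it was 2 with DESeq2 and 1 in the fit of all 36, against 5. At 2 day it was 2 with DESeq2, 2 with the replicate block and 15 in the fit of all 36, against 5. At 5 day it was 14 with library size, 0 with DESeq2 and 0 with the replicate block, against 4. At 14 day it was 0 with DESeq2, 0 with the replicate block and 8 in the fit of all 36, against 1. The step to 5 day from 2 day gave 40 in mutant libraries against 65 in wild type, and the step to 14 day from 9 day gave 14 in mutant libraries and 19 in wild type with library size, against 4. The averaged effect gave 36 with library size against 16, and the interaction 7 without the filter and 5 with the replicate block against 11. With 1 library left out the count ran from 2 to 7 at 1 somite, 1 to 5 at 25 hpf, 1 to 11 at 2 day, 0 to 5 at 5 day, 0 to 0 at 9 day and 0 to 1 at 14 day. It ran from 33 to 36, 37 to 56, 56 to 68, 68 to 71 and 0 to 5 in the 5 wild-type steps in order, 13 to 30 for the averaged effect and 6 to 16 for the interaction. At 14 day leaving out wild type 2, wild type 3, mutant 1 or mutant 3 gave 0. Of the 18 calls at single stages 4 were kept with any 1 library left out. No call reversed, while the medians of the 74 at 1 somite, 25 hpf and 9 day, all close to 0, changed sign with library size. The median of the 74 at 2 day ran from -0.32 to -0.25 over the other settings and -0.30 to -0.18 with 1 library left out.

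Libraries with the same replicate number showed no clear shared deviation (correlations of deviations -0.24 to 0.09 in 18 pairs, with 0 over 0.1), and the main tests used no pairing. With 3 libraries per group these correlations cannot exclude that a number stands for a shared clutch or batch, which the labels do not state. Of 63 results for named genes 44 kept their call under the replicate block.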
